A study of Homo sapiens with 12 samples.

Results

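The MHC class II genes were examined through the SMC1 and CTCF peaks that lie around them. The members were 10 genes, HLA-DRA, HLA-DRB1, HLA-DQA1, HLA-DQB1, HLA-DOB, HLA-DMB, HLA-DMA, HLA-DOA, HLA-DPA1 and HLA-DPB1. Every SMC1 or CTCF peak of 4 HAP1 genotypes whose summit lay in chr6:32350000-33100000 (hg19) was taken and assigned to the member whose gene body was nearest. This gave 156 peaks of the 265912 in all 8 SMC1 and CTCF lists. Overlapping intervals were merged into 29 sites, numbered S1 to S29 from the HLA-DRA end to the HLA-DPB1 end of the window.

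HAP1 is a near-haploid human leukaemia line. ChIP-seq was done for SMC1, which forms part of the cohesin ring, for CTCF, a zinc-finger protein bound to DNA at loop anchors, and with non-specific IgG. The 4 genotypes were wild-type, ΔWAPL, which lacks the factor that releases cohesin from DNA, ΔSCC4, which lacks 1 of the partners of the SCC2/SCC4 complex that loads it, and ΔWAPL/ΔSCC4, called the double knockout below. Values given for all 4 follow this order. The knockouts are clones with a drug-resistance cassette inserted at the targeted gene, and the double knockout was made from ΔWAPL cells. The ΔWAPL libraries are labelled WaplKO_3.3 and those of the double knockout DKO_3.3. There was 1 library per genotype and antibody, so the data hold no replicate error and no test was made between genotypes. Intervals below cover counting error only, except those of medians, which cover the spread over sites. A peak list carries no signal outside its peaks, so the targeted genes themselves give no check of the labels here.

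Class II molecules are pairs of an alpha and a beta chain that present peptides from outside the cell to CD4+ T cells. DR, DQ and DP are the classical presenting molecules. DM removes the invariant chain fragment from new class II molecules and exchanges peptides, and DO restrains DM. Their promoters share X and Y boxes, bound by RFX, CREB and NF-Y factors, which recruit the coactivator CIITA. CTCF sites between the class II genes have been described as insulators, among them XL9 between HLA-DRB1 and HLA-DQA1. Cohesin holds pairs of such sites together in loops. WAPL takes cohesin off DNA, and the SCC2/SCC4 complex puts it on.

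On hg19, HLA-DRA is at chr6:32407655-32412823 on the plus strand and HLA-DRB1 at chr6:32545679-32557625 on the minus strand. HLA-DQA1 is at chr6:32595956-32614839 on the plus strand and HLA-DQB1 at chr6:32627244-32636160 on the minus strand. After a further stretch follow HLA-DOB (chr6:32780540-32788243), HLA-DMB (chr6:32902406-32908805), HLA-DMA (chr6:32916390-32936871) and HLA-DOA (chr6:32971959-32977368), all on the minus strand. HLA-DPA1 (chr6:33032346-33048552, minus strand) overlaps HLA-DPB1 (chr6:33043767-33057473, plus strand). Between HLA-DOB and HLA-DMB lie TAP1, TAP2 and PSMB9, which serve class I presentation.

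CTCF reads its sites with a long motif, and the orientation of that motif has been tied to the direction in which loops are anchored. A 19 bp motif with the consensus NNGCCACNAGGGGGCGCNN was learned from CTCF peaks of wild-type cells on chromosomes with odd numbers, and it was searched on both strands within 50 bp of each summit. A match was found at 27 of the 29 sites, 11 on the plus and 16 on the minus strand. The threshold was set so that 5% of windows 1000 bp downstream of wild-type CTCF peaks on even-numbered chromosomes passed it. Of the wild-type CTCF peaks on these chromosomes 79.2% passed it. The matches of the strongest CTCF site in each gap between neighbouring members that held a site are shown first, each on the strand of its match, 5′ to 3′, with the 19 matched bases in capitals.
S4: ccacaATTCCAGAAGAGGGAGTCCcagtg
S8: gacttCCACCGCCAGATGGCGATCgagac
S13: ccattTGGCCACTAGGTGGCGCAAaaggc
S16: ggaagATAACGAAAGGTGGCAGCAcatga
S21: taacaCGCCCAACAGGTGGCGCCAaatac
S23: tagatATTCCACCAGAGGGCGACCttacc
On hg19 these 29 bases are chr6:32445757-32445785 between HLA-DRA and HLA-DRB1 (S4), chr6:32764947-32764975 between HLA-DQB1 and HLA-DOB (S8) and chr6:32836140-32836168 between HLA-DOB and HLA-DMB (S13). They are chr6:32915768-32915796 between HLA-DMB and HLA-DMA (S16), chr6:32952751-32952779 between HLA-DMA and HLA-DOA (S21) and chr6:32982708-32982736 between HLA-DOA and HLA-DPA1 (S23). S23 lies on the plus strand and the other 5 on the minus strand. All but S16, which is in an intron of the gene model ENSG00000248993, are intergenic.

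SMC1 peaks were found in the window only where CTCF peaks were. Of SMC1 peaks the window held 11 in wild-type cells, 17 without WAPL, 10 without SCC4 and 14 without both, and every 1 of them overlapped CTCF in its own genotype. Over the genome 94.5%, 81.6%, 95.2% and 93.5% of SMC1 peaks did so in the same order, and the Wilson interval of the 17 of 17 in ΔWAPL cells, 81.6% to 100%, just includes the genome value. CTCF peaks numbered 25, 28, 25 and 26. Of these, 44%, 60.7%, 40% and 53.8% carried SMC1, beside 40.7%, 60.8%, 32.3% and 52.2% of all CTCF peaks. No IgG peak lay in the window in any genotype.

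**Figure D1:**
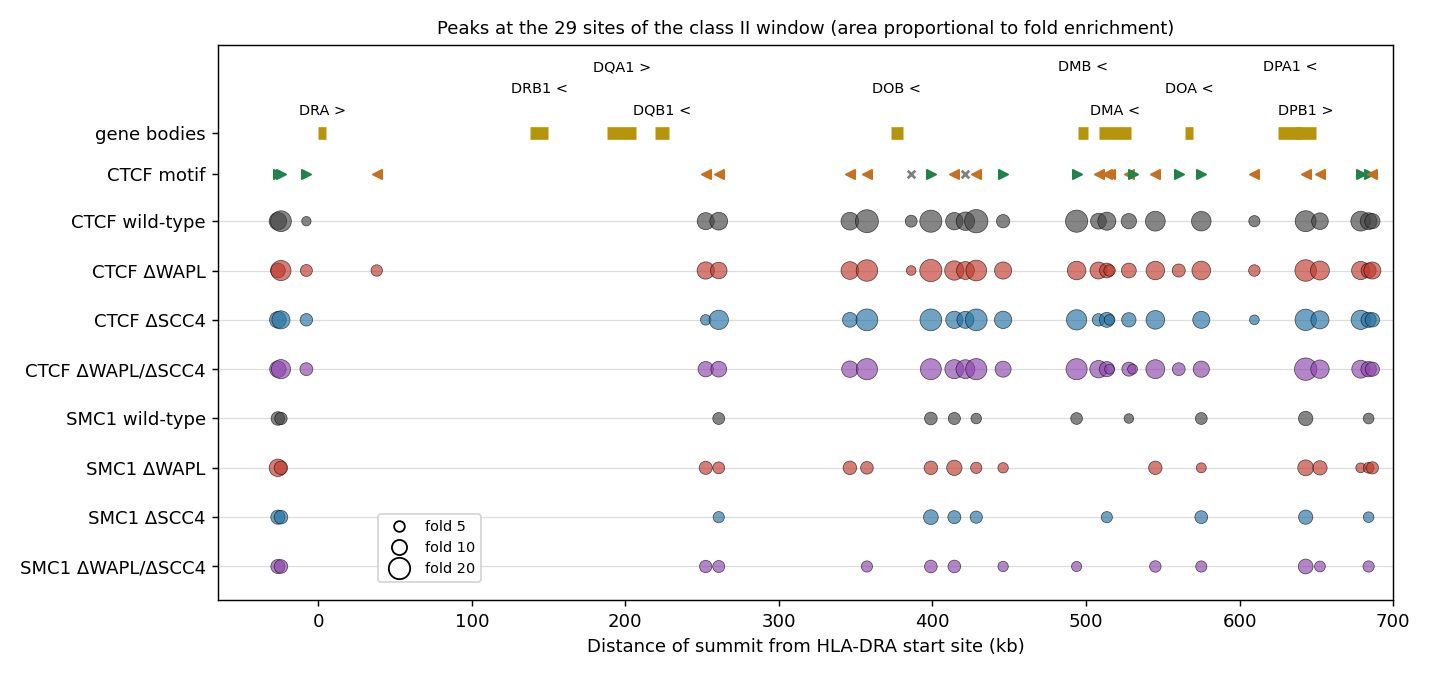
Peaks at the 29 sites plotted by the distance of the site from the start of HLA-DRA in kb, with 1 row per antibody and genotype, gene bodies at the top (> plus strand, < minus strand) and arrowheads for the strand of the CTCF motif match (crosses, no match). Circle area is proportional to the deposited fold enrichment. The stretch from HLA-DRA to HLA-DQB1 holds 1 CTCF peak, in ΔWAPL cells, and no SMC1 peak, and 23 sites carry CTCF in all 4 rows.

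The values of a peak are those of its summit. The summit pileup is the number of fragments that cover it, recovered as a whole number from the deposited values, and the normalized pileup is that number divided by the genome-wide average of the library, which was 1.54 to 1.67 reads for SMC1 and 1.08 to 1.37 reads for CTCF. Fold enrichment is the deposited ratio of the pileup to the local background. In the window SMC1 summits ranged from 13 to 89 reads and CTCF summits from 7 to 119 reads, so single SMC1 values rest on few reads. Every 65-base word of the 29 sites occurs once in the reference, 65 bases being the length of the reads.

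The classical DR and DQ genes lay in a stretch without a listed SMC1 peak. From the start of HLA-DRA to the end of HLA-DQB1, 228.5 kb, no list held an SMC1 peak, which allows up to 1.61 peaks per 100 kb (exact Poisson limit), beside 0.608 per 100 kb over chromosomes 1 to 22 and X in wild-type and 1.12 in ΔWAPL cells. The neighbouring SMC1 summits, S2 on the HLA-DRA side and S5 or S6 on the HLA-DQB1 side, were 277 to 285 kb apart. Gaps at least as long made up 14.2%, 6.19%, 23.7% and 8.66% of all gaps between neighbouring SMC1 summits. Over the genome a gap of this length was therefore no rarity. The class II window was denser than the genome, at 1.47 SMC1 peaks per 100 kb in wild-type and 2.27 in ΔWAPL cells. How often such a gap occurs at that density was not tested.

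CTCF was also sparse there. In wild-type cells the stretch held 0 CTCF peaks per 100 kb (limit 1.61), beside 3.33 in the whole window and 1.42 over chromosomes 1 to 22 and X. The stretch held a CTCF peak in the ΔWAPL list only, S4 at chr6:32445716-32445898, 32969 bp past the end of HLA-DRA, with 14 reads and a fold enrichment of 5.74. Its −log10 q of 7.12 placed it at percentile 13.4 of its list. In the other lists a peak there would have needed about 7 reads at an equal background. Between HLA-DRB1 and HLA-DQA1, 38.3 kb, where XL9 has been described, no list of any antibody held a peak. The CTCF gap was 260 kb in wild-type, ΔSCC4 and the double knockout, and 3.96%, 5.32% and 3.0% of CTCF gaps in these lists were at least as long.

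Reads can be placed only where the reference holds the sequence once. In the stretch from HLA-DRA to HLA-DQB1, 94.9% of 65-base words are unique, against 98.4% from HLA-DOB to HLA-DPB1, and between HLA-DRB1 and HLA-DQA1 the share is 93.4%. The DR and DQ region differs strongly between human haplotypes, and how far the HAP1 haplotype matches hg19 there was not tested. The genes HLA-DRB1 and HLA-DQA1 were the nearest member of no peak.

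HLA-DRA, which encodes the alpha chain shared by all DR molecules, has 3 sites upstream of its start. S1 (chr6:32381191-32381608) and S2 (chr6:32383189-32383631) stand 1984 bp apart and 26235 and 24251 bp from the gene, and S3 is 7694 bp from the start. The S1 match reads as follows, on the plus strand of chr6:32381392-32381420.
S1: ctgccTGGCCACCAGAGGGCAGCAgagac
S1 was the tallest SMC1 peak of the window in every genotype, with 38, 89, 44 and 57 reads. As normalized pileup these are 24.1, 55.9, 26.3 and 36.96 times the library average. ΔWAPL stood 2.32 times above wild-type (exact 95% interval 1.57 to 3.48), and the double knockout was 0.662 of ΔWAPL (0.466 to 0.933). The ΔSCC4 level was 1.09 times that of wild-type, with an interval of 0.691 to 1.73.

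S2 followed with 31, 52, 41 and 52 SMC1 reads. Its ratio of ΔWAPL to wild-type was 1.66 (1.04 to 2.68), and that of the double knockout to ΔWAPL was 1.03 (0.690 to 1.55). CTCF at S2 had 119, 110, 89 and 111 reads, at percentile 85.4 to 96.2 of each list. Each of these neighbours lies in the background window of the other, which holds 2.39 to 3.68 times the average SMC1 signal at S1 and S2. The ratio of fold enrichment for ΔWAPL against wild-type was 1.66 at S1 and 1.19 at S2, smaller than the ratio of pileups at both. It was also smaller at S10 and S11, at 1.13 and 1.59, beside pileup ratios of 1.35 and 1.88. S3, the site nearest HLA-DRA, carried CTCF in all 4 genotypes with 7, 17, 16 and 17 reads and no SMC1 in any.

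HLA-DQB1, which encodes a DQ beta chain, had S5 at 23848 bp and S6 at 32325 bp upstream of it. S5 carried SMC1 in ΔWAPL (20 reads, fold 7.59) and the double knockout (18 reads, fold 6.75) and not in wild-type or ΔSCC4 cells, where a call would have needed about 9 reads. CTCF at S5 had 27, 36, 10 and 28 reads. The normalized CTCF pileup in ΔSCC4 was 0.328 of wild-type (0.142 to 0.699), and that in the double knockout was 2.81 times ΔSCC4 (1.33 to 6.49). S6 carried SMC1 in all 4 with 16, 17, 17 and 20 reads, and its ratios to wild-type lay between 1.00 and 1.28.

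HLA-DOB, which encodes the DO beta chain, had 7 sites nearest to it, from S7 to S13, and S9 to S13 lie between it and HLA-DMB. S8, 15564 bp from the gene, carried CTCF with 79, 82, 88 and 73 reads and SMC1 only in ΔWAPL (21 reads) and the double knockout (15 reads). S9, in the TAP2 gene, carried CTCF in wild-type (12 reads) and ΔWAPL (9 reads) only and no SMC1. S10 lies within 1 kb of a start of TAP2, which encodes a subunit of the peptide transporter of class I presentation. S11 lies in an intron of PSMB9, an immunoproteasome subunit, 29 bp from a start and within 1 kb of a start of TAP1. Both carried SMC1 in all 4 genotypes. S10 had 22, 30, 30 and 20 SMC1 reads, and no ratio between genotypes had an interval clear of 1. S11 had 19, 36, 25 and 22 reads, and ΔWAPL stood 1.88 times above wild-type (1.05 to 3.46).

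S13, 47923 bp from HLA-DOB in intergenic sequence, held the CTCF peak of highest fold enrichment in the window, 23.8 in wild-type, with 111 reads. Its SMC1 was weak, with 14 reads in wild-type, 17 in ΔWAPL and 20 in ΔSCC4 cells and no peak in the double knockout. S12, 7047 bp from S13, carried CTCF in all 4 genotypes with 37 to 58 reads, had no motif match and carried no SMC1 in any.

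The DM genes, which encode the peptide exchanger, were near S14 to S21. S15, 896 bp from HLA-DMB, carried SMC1 in wild-type (20 reads, fold 6.06) and the double knockout (13 reads, fold 4.53) and not in ΔWAPL or ΔSCC4 cells. S19, in an intron of HLA-DMA 693 bp from an annotated start, carried SMC1 in wild-type only, with 15 reads and a fold enrichment of 4.01. S17, also in an intron of HLA-DMA in the gene model used, carried SMC1 in ΔSCC4 only, with 14 reads. That summit was 329 bp from another annotated start of HLA-DMA. These 3 peaks stood at percentile 48.1, 6.77 and 28.0 of their lists. A call in the lists without them would have needed about 9 to 12 reads at S15 and S19 and about 8 at S17. The pileup where no peak was listed is not known. Few reads may separate presence from absence at S19, where 15 reads stood against 11 or 12 needed.

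S15 also had the lowest ratio of CTCF in ΔWAPL to wild-type of any site. It had 81, 55, 68 and 87 CTCF reads, so that ΔWAPL was 0.537 of wild-type (0.374 to 0.766). The ratio of the double knockout to ΔWAPL was 1.78 (1.25 to 2.54). S16, between HLA-DMB and HLA-DMA, carried CTCF in all 4 genotypes, with 26, 39, 16 and 39 reads, and SMC1 in none. S18, also inside HLA-DMA, carried CTCF in the knockouts with 18, 16 and 15 reads and none in wild-type, and S20, in BRD2, carried it in the double knockout only, with 12 reads. S14 and S21 carried SMC1 in ΔWAPL (13 and 30 reads) and the double knockout (14 and 19 reads) only. The S14 peaks stood at percentile 14.8 and 15.1 of their lists, and a wild-type call there would have needed about 9 reads.

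HLA-DOA, which encodes the DO alpha chain, had S23 5325 bp upstream of its start. S23 carried CTCF with 59, 53, 48 and 41 reads and SMC1 with 19, 14, 25 and 19 reads. It was the only site with SMC1 in wild-type and ΔWAPL whose ratio, 0.729, was below 1, and its interval, 0.338 to 1.53, included 1. S22, 3943 bp from the gene, carried CTCF in ΔWAPL (20 reads) and the double knockout (15 reads) and no SMC1.

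The DP genes had S24, near HLA-DPA1, and S25 to S29, near HLA-DPB1, by gene body. By the nearest start site S24 falls to HLA-DPB1 and S25 to S29 to HLA-DPA1, which turns the wild-type counts of 1 and 7 peaks into 7 and 1. S24, 15083 bp from HLA-DPA1, which encodes the DP alpha chain, carried CTCF with 11, 13 and 11 reads in wild-type, ΔWAPL and ΔSCC4 cells and no peak in the double knockout. S25 (chr6:33050471-33051033) is the site with a summit inside a classical class II gene, in an intron of HLA-DPB1, which encodes the DP beta chain. It carried CTCF with 74, 91, 84 and 91 reads and SMC1 with 33, 40, 31 and 29 reads. The SMC1 ratio of ΔWAPL to wild-type was 1.20 (0.738 to 1.96), and that of ΔSCC4 to wild-type 0.885 (0.524 to 1.49). By normalized pileup the 4 genotypes were thus not separable at S25.

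Past HLA-DPB1, S26 lies in an exon of the pseudogene HLA-DPA2 and S27, S28 and S29 in introns of the pseudogene HLA-DPB2. S26 carried SMC1 in ΔWAPL (32 reads) and the double knockout (14 reads), the latter at 0.452 of the former (0.223 to 0.871). S27 (13 reads) and S29 (27 reads) carried SMC1 in ΔWAPL only. The S27 peak stood at percentile 8.77 of its list, and a wild-type call there would have needed about 10 reads. S28 carried it in all 4 genotypes with 20, 21, 15 and 17 reads. All 4 sites carried CTCF in all genotypes, with 38 to 72 reads.

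**Figure D2:**
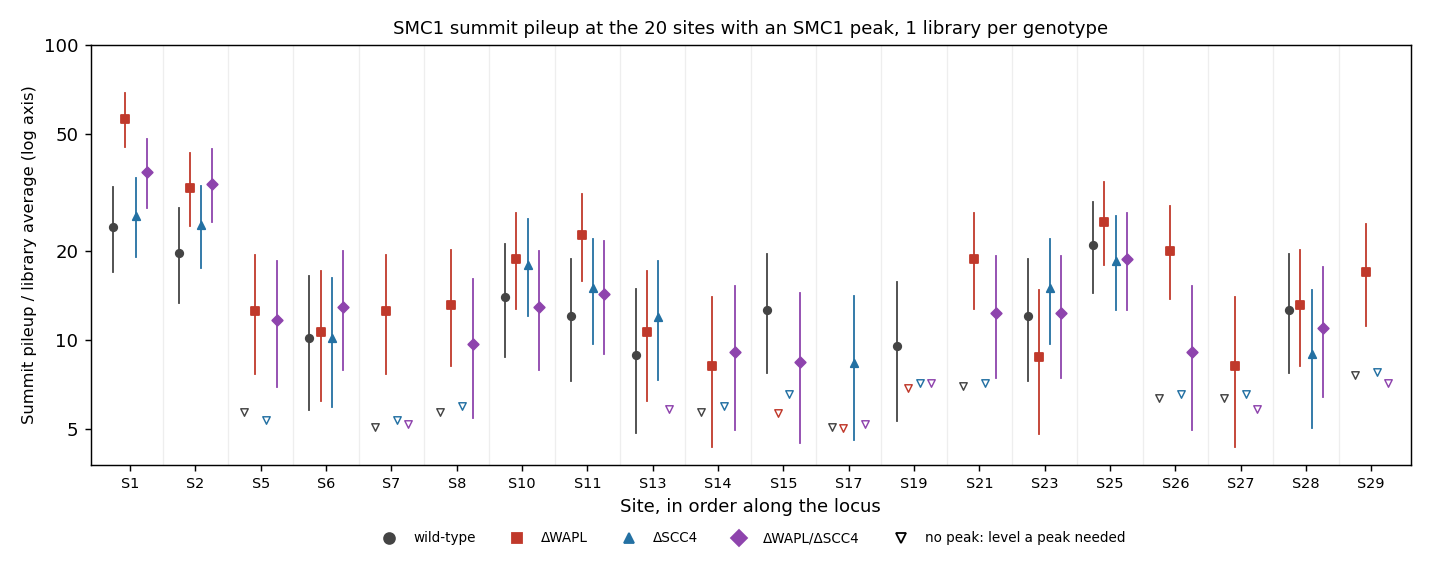
Normalized SMC1 summit pileup (log axis, in multiples of the library average) at the 20 sites with an SMC1 peak in any genotype, in order along the locus. Filled symbols are peaks with exact 95% Poisson intervals, and open triangles mark the level a peak would have needed where none was listed. ΔWAPL reaches 55.9 at S1, and 8 sites have a filled ΔWAPL symbol and an open wild-type one.

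Without WAPL, SMC1 was listed at further CTCF sites of the locus. SMC1 was listed at 8 sites in ΔWAPL and not in wild-type cells, namely S5, S7, S8, S14, S21, S26, S27 and S29. This is 8 of 17 ΔWAPL peaks, or 47.1% (Wilson interval 26.2% to 69.0%), where 49% of all ΔWAPL SMC1 peaks were absent from wild-type. The 8 sites had CTCF in wild-type already, with fold enrichments of 7.73 to 23.03 and a median of 13.3, beside 10.4 to 23.8 and a median of 16.8 at the 11 sites with wild-type SMC1. At the 5 sites with wild-type CTCF and never SMC1 it was 3.84 to 14.96, with a median of 6.24. In the other direction S15 and S19 were listed in wild-type and not in ΔWAPL, 2 of 11 or 18.2% (5.14% to 47.7%), where 6.28% of all wild-type SMC1 peaks were missing.

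At the 9 sites with SMC1 in both lists the ratio of ΔWAPL to wild-type had a median of 1.20 (interval 1.04 to 1.88) and ranged from 0.729 to 2.32. The median over 17290 regions of the genome was 1.61, inside that interval. The window median was 1.5 at −log10 q of at least 10, 1.66 with equal numbers of the strongest peaks and 1.14 by fold enrichment. No genome median was taken under these settings. The interval of the ratio lay above 1 at 3 of the 9, S1, S2 and S11, and at 42.7% of the regions of the genome. Only sites listed in both can enter such a ratio, so sites that lost or gained their peak are not in it. With the same number of the strongest SMC1 peaks taken from each list, 12779, the window held 9, 7, 10 and 5 peaks, and 2 rather than 8 ΔWAPL peaks were absent from wild-type. The higher number of ΔWAPL peaks in the window thus holds for the full lists and not for lists of equal length.

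**Figure D3:**
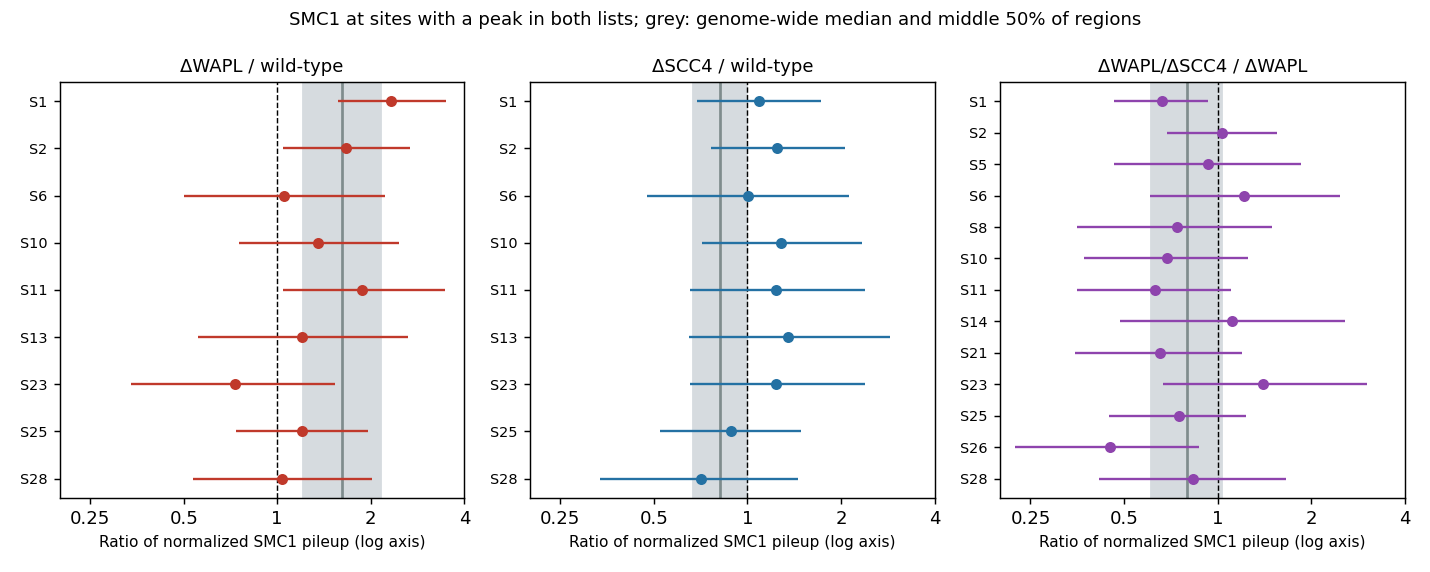
Ratio of normalized SMC1 pileup on a log axis for ΔWAPL to wild-type, ΔSCC4 to wild-type and the double knockout to ΔWAPL, at each site with a peak in both lists. Bars are exact 95% counting intervals, the dashed line is 1, and the grey line and band are the median and the middle 50% of regions of the genome. In the middle panel 7 of 9 sites lie above 1, while the genome median is 0.817.

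Most wild-type cohesin sites of the locus were also listed in ΔSCC4 cells. Of the 11 only S15 and S19 were missing there, or 18.2%, where 39.8% of the wild-type SMC1 list was missing. The Wilson interval of 5.14% to 47.7% includes the genome value. At the 9 sites listed in both, the ratio of ΔSCC4 to wild-type had a median of 1.24 and a range of 0.707 to 1.35, with 7 sites above 1. The interval of this median, 0.885 to 1.29, includes 1 and lies above the genome median of 0.817. Over the genome 24.03% of regions lay above 1. No site had an interval above or below 1, where 0.323% of the regions of the genome lay above and 8.79% below. The normalized ΔSCC4 pileups at class II sites were therefore not separable from those of wild-type at this depth. These ratios are relative to the average of each library and do not measure the total amount of cohesin bound. By immunofluorescence the paper reports less cohesin on chromatin in ΔSCC4 cells.

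The double knockout shared most of its SMC1 sites with ΔWAPL, and most shared peaks were lower. Of the 17 ΔWAPL SMC1 peaks 4 were absent, S7, S13, S27 and S29, or 23.5%, where 31.5% of all ΔWAPL peaks were absent. Of its 14 peaks 5 were absent from wild-type, S5, S8, S14, S21 and S26, or 35.7%, beside 37.5% over the genome. Against ΔSCC4, 6 of 14 were absent, or 42.9%, beside 54.8%. The ratio of the double knockout to ΔWAPL at 13 sites had a median of 0.749 and a range of 0.452 to 1.40, and the genome median was 0.795. Its interval lay below 1 at 2 of the 13, S1 and S26, and at 23% of regions of the genome. In all, 8 of the 20 sites with SMC1 carried it in all 4 genotypes (40%, Wilson interval 21.9% to 61.3%), beside 28.2% of SMC1 regions over the genome. The count was 4 at −log10 q of at least 10 and 5 with equal numbers of the strongest peaks.

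CTCF was listed in every genotype at most sites. A peak was present in all 4 lists at 23 of the 29 sites, 79.3% (61.6% to 90.2%), beside 64.2% of CTCF regions over the genome. Of the 25 wild-type CTCF peaks 1 was absent from ΔSCC4, S9, where 16.6% of all wild-type peaks were. The 6 sites without CTCF in all lists, S4, S9, S18, S20, S22 and S24, held 9 to 20 reads where they were listed, and none of them carried SMC1. The median ratio of CTCF to wild-type was 0.810 in ΔWAPL (25 sites), 0.753 in ΔSCC4 (24 sites) and 0.837 in the double knockout (23 sites), beside 0.829, 0.802 and 0.921 over the genome. For ΔWAPL the interval lay below 1 at 6 of 25 sites, S1, S2, S13, S15, S17 and S28, beside 17.5% of regions of the genome. At S1 CTCF in ΔWAPL was 0.543 of wild-type (0.383 to 0.765), while SMC1 there was 2.32 times higher.

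**Figure D4:**
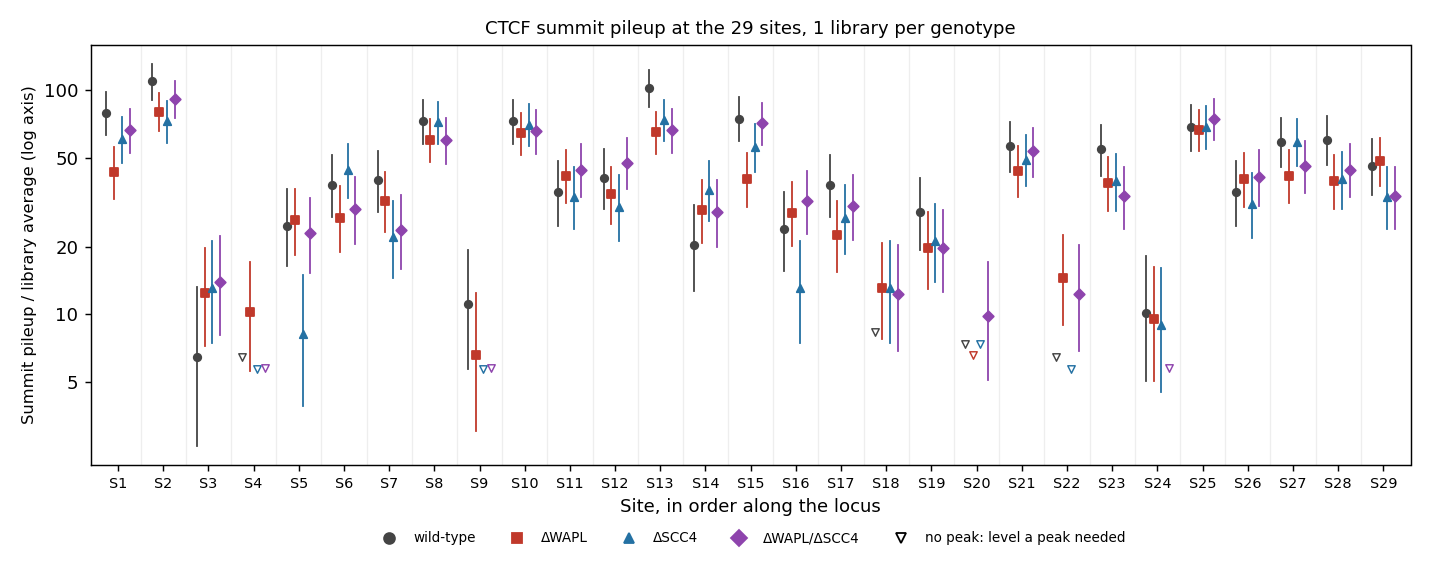
Normalized CTCF summit pileup (log axis, in multiples of the library average) at the 29 sites in order along the locus, with exact 95% Poisson intervals, and open triangles at the level a peak would have needed where none was listed. The 6 sites with an open triangle, S4, S9, S18, S20, S22 and S24, are among the lowest, and S2 is the highest with 110 in wild-type.

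The motif matches were set in both directions along the locus. The matches of S1, S2 and S3, on the HLA-DRA side of the DR and DQ genes, are on the plus strand, and S5, S6, S7 and S8, past HLA-DQB1, are on the minus strand. The sites that flank the stretch without SMC1 peaks thus point at each other. Among the 8 sites with SMC1 in all 4 genotypes, neighbours were convergent in 3 pairs, S2 and S6 (285 kb), S10 and S11 (15.3 kb) and S23 and S25 (68.0 kb), divergent in 3 and tandem in 1. Among the 17 sites with SMC1 in ΔWAPL cells the counts were 5, 4 and 7, and among the 11 of wild-type 4, 4 and 2. Among all 27 sites with a match, whether or not they carried SMC1, they were 6, 5 and 15, so tandem neighbours were the most frequent kind when every site was counted. Peak lists give the sites and not which of them were in contact.

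Some of the sites resemble each other in sequence. Of 351 pairs of matches, S6 and S7 aligned best, followed by S25 and S29, when 150 bp on each side were aligned. These pairs, and S26 in the HLA-DPA2 pseudogene, were singled out after their values were seen, and they are shown because similar sequence carried SMC1 in different genotypes.
S6: catgtTCACCAGTAGGTGGGGACAttgca
S7: catctTCACCAGTAGGTGGGGACAttgca
S25: atcagTGACCTCCAGGGTGCGCTGgagtt
S29: atcagAGACCTCCAGGGGGCGCTGcagct
S26: acctgTGACCTCCAGGGGGAGCACtgggg
S6 (chr6:32668456-32668484) and S7 (chr6:32753846-32753874) have the same 19 bases, 85.4 kb apart, and 86.4% of 317 aligned columns are identical. S6 carried SMC1 in all 4 genotypes and S7 in ΔWAPL only, with 20 reads and a fold enrichment of 8.10. Their CTCF was alike in wild-type, at 41 and 43 reads, and in ΔWAPL, at 37 and 44. In ΔSCC4 cells S6 had 54 CTCF reads and S7 had 27.

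S25 (chr6:33050660-33050688) and S29 (chr6:33094061-33094089) match at 17 of 19 bases, differ by T1A and T13G counted from the 5′ end of the match, S25 first, and are identical in 82.4% of 312 aligned columns. S25 carried SMC1 in all genotypes, and S29 in ΔWAPL only, with 27 reads. Wild-type CTCF was 74 reads at S25 and 50 at S29. S26 (chr6:33059925-33059953) shares 15 of 19 bases with S25 and with S29. S17 and S18, 1.77 kb apart in HLA-DMA, match at 17 of 19 bases, and neither carried SMC1 in wild-type. The match of S29 scored higher, 17.1, than that of S25, 12.9, so in this pair the lower score went with SMC1 in all 4 genotypes.

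Near the start sites of the 10 members SMC1 was listed for HLA-DMA only, through 1 weak peak each in wild-type and ΔSCC4 cells. A summit within 1 kb of a transcript start was found for 1 of 10 members, HLA-DMA. Its SMC1 summits were at different sites, S19 in wild-type (799 bp from a start) and S17 in ΔSCC4 (329 bp). They had 15 and 14 reads and stood at percentile 6.77 and 28.0 of their lists. CTCF was found that near to HLA-DMA in all 4 genotypes, where 29.3%, 29.6%, 26.1% and 31.1% of all protein-coding genes had a CTCF summit. In ΔWAPL cells and the double knockout 0 of 10 members had an SMC1 summit that near, while 43.9% and 24.4% of all 20098 protein-coding genes did. For SMC1 the share of all protein-coding genes was 17.4% in wild-type and 11.9% in ΔSCC4, beside 10% of the members in each. None of 8 other class II genes and pseudogenes had an SMC1 or CTCF summit near a start in any genotype. Of 11 regulators and partners of class II, 1 had an SMC1 summit in wild-type, RFXANK, and 5 in ΔWAPL, RFXANK, RFXAP, CREB1, NFYA and NFYB, of fold enrichment 4.12 to 5.62. None had one in ΔSCC4 or the double knockout. The 5 of 11 in ΔWAPL, 45.5%, is near the 43.9% of all protein-coding genes. Of 13 class I and antigen processing genes 4 had one in every genotype, HLA-B, TAP1, TAP2 and PSMB9. TAP1 and PSMB9 were counted through the same peak, at S11. The 4 genes are 30.8% of the list in each genotype, beside the shares of all protein-coding genes given above.

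**Figure D5:**
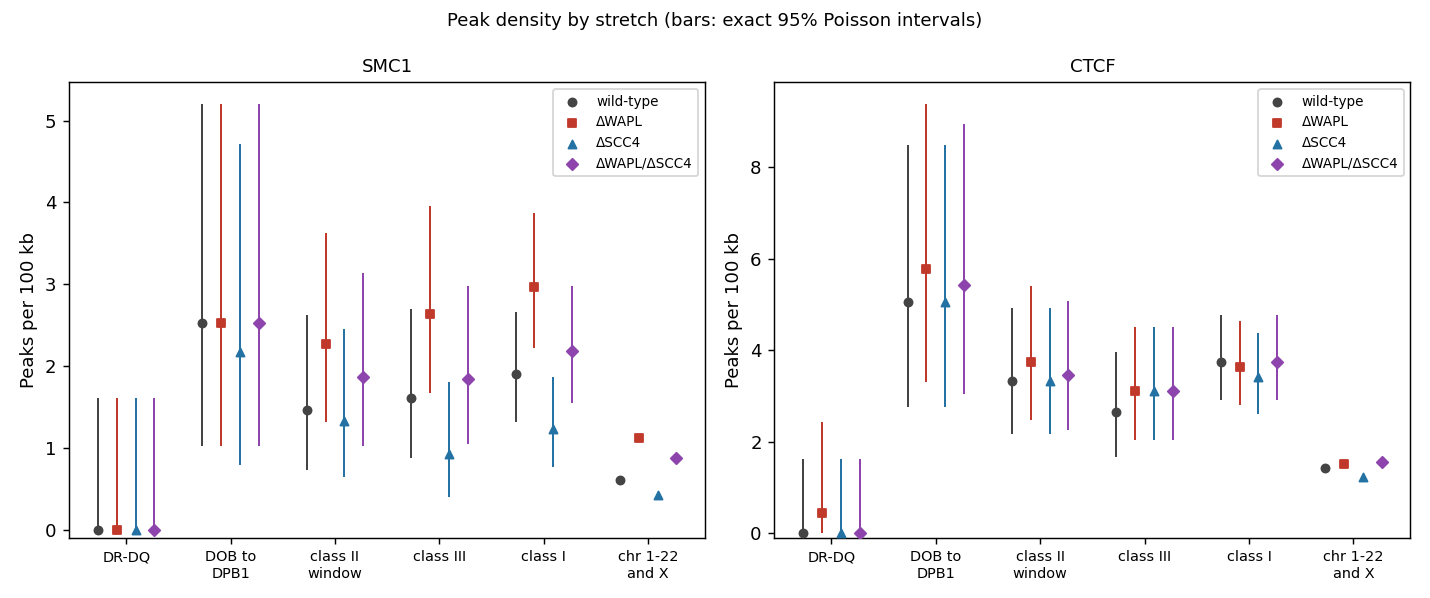
Peaks per 100 kb of SMC1 (left) and CTCF (right) in 6 stretches, with exact 95% Poisson intervals and 1 symbol per genotype. The DR-DQ stretch is at 0 for SMC1 in all 4 genotypes, and the stretch from HLA-DOB to HLA-DPB1 lies at 2.17 to 2.53.

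The window as a whole was not poor in peaks. It held 1.47 SMC1 peaks per 100 kb in wild-type (0.732 to 2.62), and 2.27, 1.33 and 1.87 in the knockouts. The class III stretch next to it held 1.61, 2.64, 0.918 and 1.84, and the class I stretch 1.90, 2.96, 1.23 and 2.18. From HLA-DOB to HLA-DPB1 the density was 2.53 SMC1 peaks per 100 kb in wild-type and the same in ΔWAPL cells, with 7 peaks each, of which 5 were at shared sites. The further ΔWAPL peaks outside that stretch were S5, S7 and S8 between HLA-DQB1 and HLA-DOB and S26, S27 and S29 past HLA-DPB1. The intervals of the class II window overlapped those of the class I and class III stretches in every genotype.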

How the data were processed

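ChIP-seq libraries of SMC1, CTCF and IgG from 4 HAP1 genotypes were available as 1 peak list each. The SMC1 lists held 18542, 33952, 12779 and 26558 peaks. The authors reported more SMC1 peaks in ΔWAPL and fewer in ΔSCC4 cells than these lists hold, so the shares given here are not those of the published counts. The authors mapped single-end 65 bp reads to hg19 with Bowtie2 and called peaks with MACS2 2.1.1. The deposited fold enrichment is a ratio of summit pileup to local background, each with 1 read added, and the deposited −log10 p-value and −log10 q-value belong to that summit. The deposited signal is thus given at peaks only. The methods name IgG as the control of the calls. In each list, however, the backgrounds above the floor were whole numbers of reads in 10 kb of sequence at the scale of the library itself, for 100% of tested peaks. The calling threshold was not given in the sources used here.

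A whole-number pileup that gives back the −log10 p-value and fold enrichment of the peak (tolerance 0.005) was found for 100% of peaks. The lowest background of a list is its genome-wide average, 6.53 to 8.41 reads per kb for SMC1 and CTCF, and pileups were divided by it to compare libraries. Ratios of 2 pileups have exact Clopper-Pearson intervals, shares Wilson intervals and counts exact Poisson intervals, all at 95%. Medians over sites have 95% intervals from the ranks of the sites. Lists share a peak when intervals overlap by at least 1 bp. The reads needed for a missing call were set from the weakest −log10 p-value of the list, with the background of the lists that hold the peak. They leave out the minimum length of a peak. Genes are from GENCODE 44 mapped to GRCh37, whose coordinates are those of hg19. Sequences are from GRCh37. Recovery and motif learning were tested on simulated data. Python 3.11.15, numpy 2.4.6, scipy 1.17.1, pandas 2.3.3, pysam 0.24.0, statsmodels 0.14.6, Biopython 1.88 and matplotlib 3.10.9 were used.

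Named were, for each member, the sites of highest CTCF and SMC1 −log10 q, for each gap between members the site of highest CTCF, and each site with SMC1 on 1 side only of the split between the ΔWAPL and ΔWAPL/ΔSCC4 lists and the wild-type and ΔSCC4 lists. The members, lists and rules were chosen with earlier results of these data known. Alternatives were −log10 q of at least 10, leaving out peaks that overlap an IgG peak, membership by interval overlap, equal numbers of the strongest peaks, summits no more than 250 bp apart, fold enrichment in place of the normalized pileup, the DR-DQ stretch left out, and assignment by the nearest start site.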

Additional observations from a re-analysis of the deposited data

How the results depend on the processing

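CTCF counts, the shares of SMC1 at CTCF and the 7 median ratios kept their values within the limits set (a factor of 1.5 for counts, the 95% interval of the share or median otherwise) under each alternative run on them. These limits are wide for medians. The SMC1 median of ΔWAPL to wild-type, 1.20, has limits of 1.04 to 1.88 and became 1.66 with equal numbers of the strongest peaks. Removal of peaks at an IgG peak could change nothing, since the window holds 0 IgG peaks, and leaving out the DR-DQ stretch could change no SMC1 value, since it holds 0 SMC1 peaks. SMC1 counts depended on the strength of the peaks kept. At −log10 q of at least 10 the window held 4, 11, 6 and 5 SMC1 peaks (order as above), 0 wild-type SMC1 peaks were absent from ΔSCC4, and 4 SMC1 sites were in all 4 genotypes. With equal numbers of the strongest peaks there were 7 SMC1 peaks in ΔWAPL and 5 in the double knockout, 2 ΔWAPL peaks absent from wild-type, 1 wild-type peak absent from ΔSCC4, 2 ΔWAPL peaks absent from the double knockout, and 5 sites in all 4 genotypes. These settings keep fewer peaks by construction. Assignment by the nearest start site changed 13 of 40 counts per member and genotype by more than 1.5 times, among HLA-DMB, HLA-DMA, HLA-DPA1 and HLA-DPB1. No paired analysis was possible because each group holds 1 library. At S6, with 16 and 17 SMC1 reads, the interval of the ratio of ΔWAPL to wild-type ran from 0.500 to 2.22, so smaller differences are not detectable at single sites of this depth.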
